A study of Mus musculus with 6 samples.

Results

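The matrix metalloproteinases (MMPs), the ADAM and ADAMTS proteases, the ADAMTS-like proteins and the tissue inhibitors of metalloproteinases (TIMPs) were followed in C2C12 myotubes given palmitate. Their probe sets were taken by name, as every probe set of the array whose single gene symbol was that of an Mmp, Adam, Adamts, Adamtsl or Timp gene with a number. This gave 85 probe sets of 56 genes, among 20380 probe sets of 12393 genes with 1 gene symbol (22626 probe sets in all, controls of the array aside). They comprised 25 probe sets of 18 MMP genes, 13 of 4 TIMP genes, 36 of 25 ADAM genes, 9 of 7 ADAMTS genes and 2 of 2 ADAMTS-like genes. A further probe set, annotated to Adam1a and another gene together, was left out. C2C12 is an established mouse myoblast line that fuses into contractile myotubes when serum is lowered. Cells of both groups were differentiated for 5 days in 2% horse serum. The first group of 3 arrays then received 500 µM palmitate, a saturated fatty acid that had been bound to fatty acid-free bovine serum albumin (BSA), and the second group of 3 arrays received 1% BSA, both for 16 h. Replicates are numbered 1 to 3 in the labels, which do not say whether each was its own culture, and the p-values here therefore reflect the spread among these arrays, possibly of technical origin. Such a culture also holds unfused cells, and in whole-culture RNA fewer cells of a type cannot be told apart from less RNA per cell.

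MMPs are zinc-dependent proteases that cut collagens and other matrix proteins, and most are made as inactive proenzymes. Membrane-anchored MMP14 cleaves collagen at the cell surface and, with TIMP2 as a bridge, activates the gelatinase MMP2. ADAMs are membrane proteases, several of which release growth factors, cytokines and Notch fragments from the cell surface, and some take part in cell fusion. ADAMTS enzymes are secreted and cut proteoglycans such as versican and aggrecan, and TIMPs block MMPs and, for TIMP3, several ADAM and ADAMTS enzymes as well. In muscle these enzymes act in migration and fusion of myoblasts and in turnover of the matrix around fibres.

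Values are MAS 5 signal intensities on a linear scale, already scaled by the authors to an equal average (2% trimmed mean between 1500.5 and 1500.56 on the 6 arrays). Arrays of 1 group correlated at 0.943 to 0.959 over the log2 signals and arrays of different groups at 0.883 to 0.910. Palmitate replicate 2 had the lowest 3' to 5' log2 ratio of the Gapdh control probe sets (-0.20, against 0.19 to 0.35 on the other 5 arrays). The 9 hybridisation control probe sets, which detect RNAs added during the assay, averaged 12.54 ± 0.10 log2 units with palmitate and 12.28 ± 0.076 with BSA (SD, n = 3). Scaling to these controls lowers every log2 fold change by 0.26, moves the median of all probe sets from -0.0083 to -0.27, and turns a split of 44.9% higher calls into 16.6%. Which scaling is right was not settled. Of the skeletal myotube markers all 13 lay above the filter described next and 0 passed in either direction (limma, adjusted), and their summed signal spanned 150106 to 160536 with palmitate and 133256 to 220497 with BSA.

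Detection calls were not used here, so a probe set was called dim where its geometric mean signal over the 6 arrays was at or under 267.1, the 40th percentile of all probe sets. Of the 85 member probe sets 42 lay above this filter, covering 23 genes, and 43 were dim, and 33 genes had dim probe sets only. The 42 were tested with limma together with all other probe sets above the filter, 13575 in all, at a Benjamini-Hochberg adjusted p of 0.05. In limma 14 of the 42 passed as lower with palmitate and 0 as higher. Of all probe sets tested 19.2% passed, 8.63% as higher and 10.6% as lower (2609 in all, and 1579 without BSA replicate 2). Lower by at least 2-fold were 8 members, beside 4.74% of all, and higher by as much 0 members, beside 3.09%. The 14 belonged to 6 genes, namely Mmp2, Mmp14, Timp2, Timp3, Adamts5 and Adam10, and probe sets of 1 gene are repeat measures of it. At an unadjusted p under 0.05, 1 member was higher and 17 were lower. The median log2 fold change of the 42, palmitate over BSA, was -0.33, beside -0.0083 over all probe sets tested. Groups did not overlap for 22 of the 42, beside 37.2% of all probe sets tested. Palmitate arrays were all below the BSA arrays for 18 of them, beside 19.6% of all, and all above for 4, beside 17.6%. In what follows each log2 fold change is palmitate over BSA ± limma's SE (n = 3 and 3 arrays), followed by limma's adjusted p. Where the changes of 2 probe sets are set against each other, the SE is not limma's. It comes from the spread of their per-array difference over 3 and 3 arrays.

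The families differed in how many of their probe sets passed, a description with no test of its own. Of 10 TIMP probe sets above the filter 7 fell and of 7 MMP probe sets 4 fell, with medians of -0.76 and -1.08. Of all probe sets tested 10.6% fell. The 7 were of 2 genes among 3 TIMP genes above the filter, and the 4 of 2 genes among 5 MMP genes. Counts and medians are over probe sets, so a gene with several weighs more. Of 6 ADAMTS probe sets 2 fell, both of Adamts5, with a family median of -0.33. Of 17 ADAM probe sets 1 fell, at a family median of -0.027. By gene, 1 of 4 ADAMTS genes and 1 of 9 ADAM genes above the filter had a probe set that fell. The 2 ADAMTS-like probe sets did not pass, with values of -0.060 and -0.085.

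**Figure D1:**
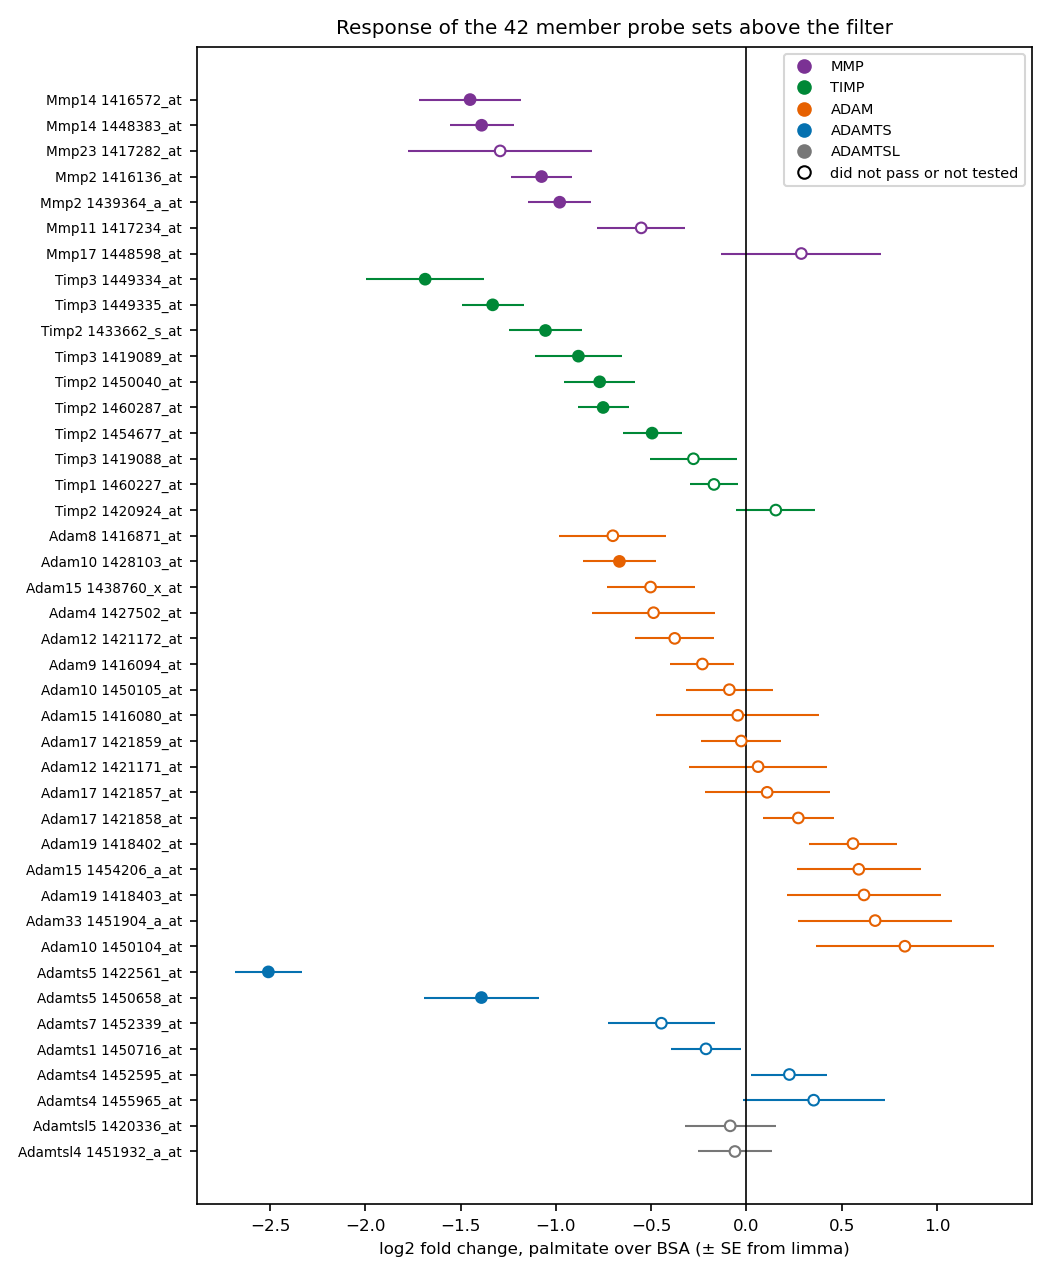
Log2 fold change of each member probe set above the filter, palmitate over BSA, ± limma's SE (3 arrays in each group), grouped by family. Filled points passed the test and open points did not. All 14 filled points lie left of 0, between -2.51 and -0.50, and 16 of the 17 ADAM points are open.

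Markers of other cell types were read in the same way. The cells were of a myoblast line, so lower fibroblast markers do not show that fibroblasts were present. Col1a1 and Col3a1 of the fibroblast list are also among the matrix substrates below. Of 7 fibroblast markers 4 were above the filter and all 4 fell, namely Pdgfra, Pdgfrb, Col1a1 and Col3a1, with a summed signal over the 7 of 15350 to 20518 with palmitate and 65856 to 79763 with BSA. Lum, Dpt and Thy1 of this list were dim. Of 5 measured markers of undifferentiated or cycling myoblasts 3 fell (Mki67, Top2a and Cdk1). Myf5 (-0.24 ± 0.28, limma's adjusted p = 0.603) and Pcna (-0.34 ± 0.16, adjusted p = 0.152) did not pass, and Pax7 was dim. The summed signal over the 6 on the array was 25223 to 29134 with palmitate and 36088 to 49074 with BSA. The part of fibroblasts or of undifferentiated or cycling myoblasts in the falls of Mmp2, Mmp14, Timp2, Timp3 and Adamts5 was not tested. Of 7 macrophage markers 0 of the 3 above the filter passed, Ptprc, Itgam, Cd68 and Lyz2 were dim, and the summed signal was 2329.9 to 2731 with palmitate and 1916 to 2391 with BSA. All 5 endothelial and all 4 adipocyte markers on the array were dim.

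Both probe sets of Mmp14 and both of Mmp2 were lower with palmitate. Mmp14 (probe set 1448383_at), the membrane-anchored collagenase and activator, gave signals of 2489.7, 3096 and 2350.3 with palmitate, against 7993, 6723 and 6070.4 with BSA. Every palmitate array lay below every BSA array, by 2.62-fold (-1.39 ± 0.17, adjusted p = 0.000173). Its other probe set, 1416572_at, gave 437, 842 and 832 with palmitate, against 2127, 1778 and 1654 with BSA, again without overlap (-1.45 ± 0.27, adjusted p = 0.0027), with palmitate replicate 1 lowest. Mmp2 (1416136_at), the gelatinase, gave 4728, 4661 and 5500.1 with palmitate, against 8501, 11544 and 11559 with BSA. Its groups were apart too, 2.11-fold lower with palmitate (-1.08 ± 0.16, adjusted p = 0.000706). The other, 1439364_a_at, averaged 4551 ± 832 with palmitate and 8922 ± 1024 with BSA (SD, n = 3) and fell to a like extent (-0.98 ± 0.16, adjusted p = 0.00153). All 4 calls held on leaving out any 1 array.

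Timp2, the inhibitor that also bridges MMP14 and pro-MMP2, was measured by 6 probe sets, of which 5 lay above the filter and 4 fell. The brightest, 1460287_at, gave 11272, 10795 and 11961 with palmitate, against 21738, 18853 and 16969.9 with BSA, or 1.68-fold lower (-0.75 ± 0.13, adjusted p = 0.00224). Probe set 1433662_s_at gave 5985, 6615 and 5604 with palmitate, against 17525, 10761 and 10546 with BSA (-1.05 ± 0.19, adjusted p = 0.00248), with BSA replicate 1 standing above the other BSA arrays. Probe set 1450040_at averaged 1778 ± 95.3 with palmitate and 3074 ± 612 with BSA (SD, n = 3; -0.77 ± 0.19, adjusted p = 0.0134), and its call ended without BSA replicate 3 (adjusted p = 0.0552). Probe set 1454677_at had the smallest change of the 14, at 9196, 10267 and 7164 with palmitate, against 13194, 12528 and 11457 with BSA (-0.50 ± 0.15, adjusted p = 0.042). That call ended on leaving out any array but palmitate replicate 2 (adjusted p up to 0.168), with median scaling (0.0577), with 75th percentile scaling (0.0521), with no filter (0.0655), without an intensity trend (0.12) and with the replicate number as a block (0.082). Probe set 1420924_at overlapped between groups, at 1545, 1654 and 1239.6 with palmitate, against 1607, 1300.1 and 1101 with BSA (0.15 ± 0.21, adjusted p = 0.656, and -0.10 after hybridisation control scaling). The remaining probe set, 1437081_at, was dim. The change of the brightest Timp2 probe set was -0.91 ± 0.18 log2 units from that of 1420924_at (1460287_at minus 1420924_at). The exact permutation p was 0.1, two-sided, the smallest that 3 arrays against 3 allow, so this test cannot decide whether the 2 differ.

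Between the brightest probe sets of Mmp14 and Timp2 the log2 fold changes differed by -0.64 ± 0.16 (Mmp14 minus Timp2, ± SE; exact permutation p = 0.1, the smallest possible), which does not pass, and the Timp2 probe set 1433662_s_at lay nearer to Mmp14. For Mmp2 minus Timp2 the difference was -0.32 ± 0.25 (exact permutation p = 0.4). There were 13 such differences between responses computed in all, on pairs chosen after values were seen, and adjusted over them a p of 0.1 becomes 0.118.

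**Figure D2:**
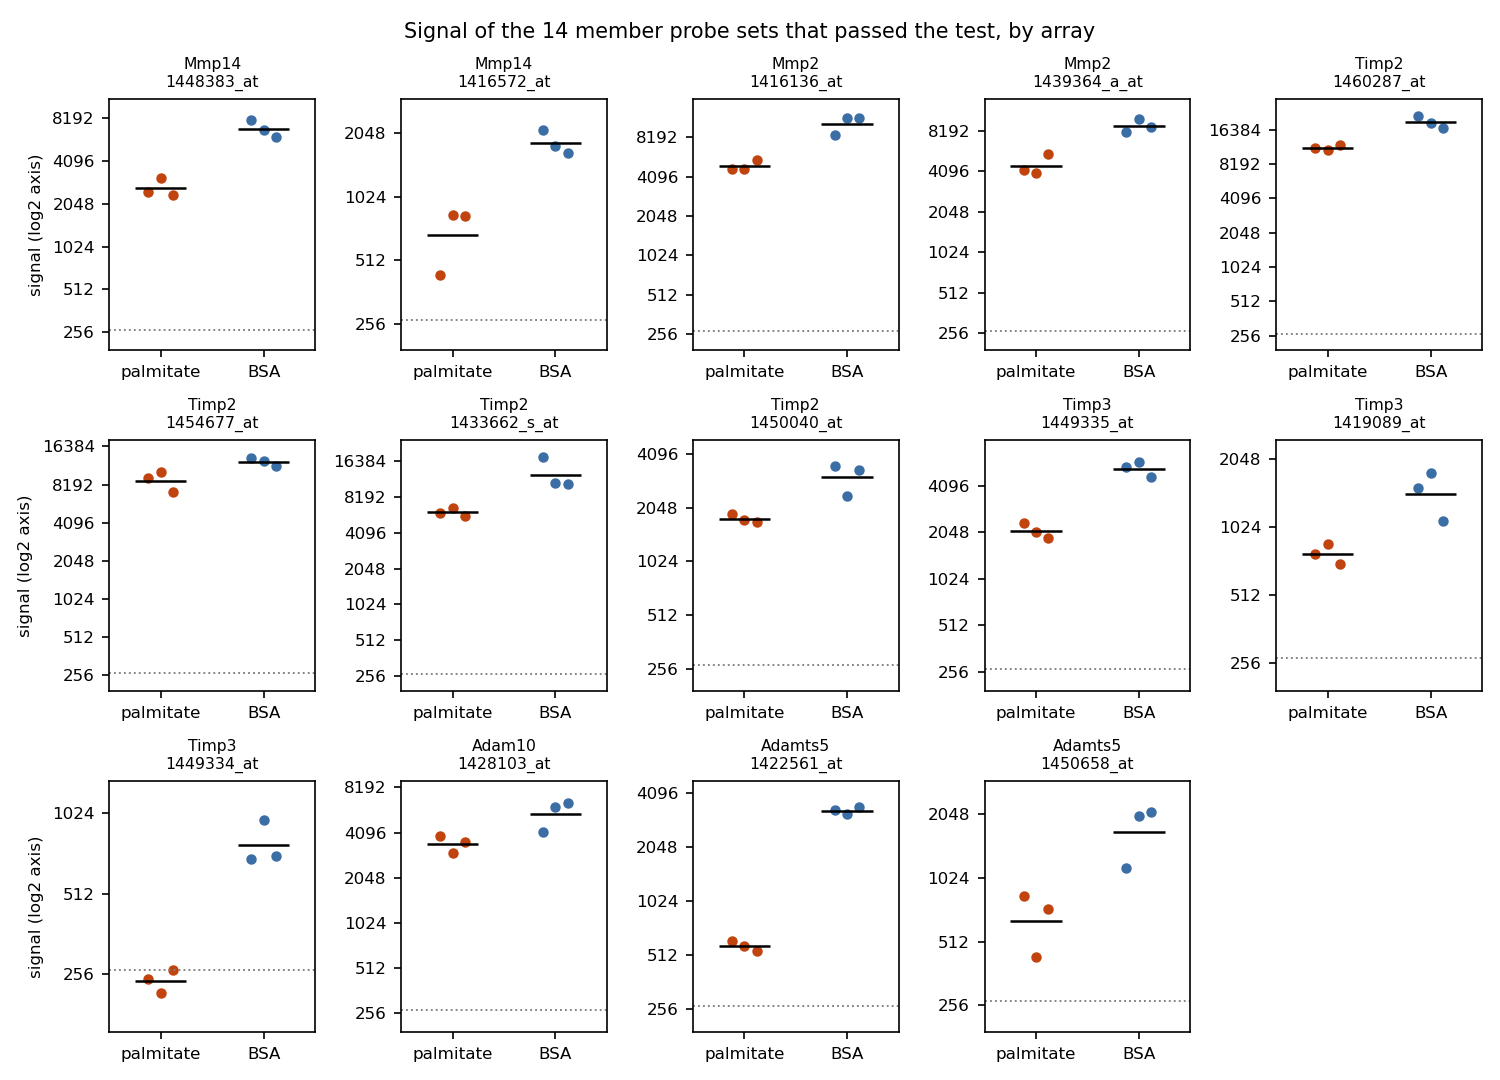
Signal on each array (log2 axis, unitless MAS 5 signal) of the 14 member probe sets that passed the test, palmitate left and BSA right, with the group's geometric mean as a bar and the filter signal of 267.1 as a dotted line. In each panel the 3 palmitate arrays lie below the 3 BSA arrays, and in the last Timp3 panel the palmitate arrays, at 218 to 265, lie under the dotted line.

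Timp3, the matrix-bound inhibitor that also blocks ADAM17 and the aggrecanases, fell on 3 of its 4 probe sets. The brightest, 1449335_at, gave 2334, 2057 and 1878 with palmitate, against 5379.6, 5779 and 4627 with BSA. This was 2.52-fold lower, with no overlap (-1.33 ± 0.16, adjusted p = 0.000178). The largest change was on 1449334_at, with 246, 218 and 265 with palmitate, against 693, 964 and 711 with BSA (-1.69 ± 0.31, adjusted p = 0.00274) and with all palmitate arrays under the filter signal. Probe set 1419089_at averaged 781 ± 80.9 with palmitate and 1463 ± 349.7 with BSA (SD, n = 3; -0.88 ± 0.23, adjusted p = 0.0188), and its call ended without palmitate replicate 3, BSA replicate 1 or BSA replicate 2 (adjusted p up to 0.0958). The remaining one, 1419088_at, at 608, 798 and 719.8 with palmitate, against 761, 906 and 905 with BSA, overlapped between groups and did not pass (-0.28 ± 0.23, adjusted p = 0.438). The change of 1449335_at minus that of 1419088_at was -1.05 ± 0.23 log2 units (exact permutation p = 0.1, the smallest possible).

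Timp1, the soluble inhibitor that is inducible in many cell types, did not pass. It gave 26853, 28697 and 27699 with palmitate, against 34688, 32314 and 27141 with BSA, and the groups overlapped, since BSA replicate 3 lay among the palmitate arrays (-0.17 ± 0.13, adjusted p = 0.384). Against Timp1 on the same arrays, the change of the brightest Timp3 probe set was -1.16 ± 0.12 log2 units. For the brightest Timp2 probe set it was -0.58 ± 0.07 (exact permutation p = 0.1 for each, the smallest possible). Timp3 1419088_at (-0.28 ± 0.23) and Timp2 1420924_at (0.15 ± 0.21), which did not pass either, were not set against Timp1. Timp4 was dim on both of its probe sets, with signals of 10.5 to 298 over all arrays and overlapping groups.

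Adamts5, a secreted protease that cuts aggrecan and versican, had the largest called change of the members. Probe set 1422561_at gave 612, 577 and 541 with palmitate, against 3286, 3132 and 3425 with BSA. The spread within each group was small beside the gap, and the level was 5.69-fold lower with palmitate (-2.51 ± 0.18, adjusted p = 5.20e-06). Its other probe set, 1450658_at, gave 842, 431 and 725 with palmitate, against 1139, 1992 and 2092 with BSA (-1.39 ± 0.30, adjusted p = 0.00757). The calls of both held on leaving out any 1 array, with ranges of -2.55 to -2.46 and -1.67 to -1.11.

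Other aggrecan- and versican-cutting enzymes did not pass. Adamts4 gave 4568, 2841 and 4796 with palmitate, against 3308, 3531 and 3334 with BSA on its brighter probe set (0.23 ± 0.20, adjusted p = 0.473, and -0.033 after hybridisation control scaling), with palmitate replicate 2 below and the other palmitate arrays above the BSA arrays. Its second probe set was at 0.35 ± 0.37, adjusted p = 0.555. Adamts1, which lies next to Adamts5 on chromosome 16 in the RefSeq gene order of GRCm38.p6, gave 1995, 1449 and 1554 with palmitate, against 1818, 1924 and 1998 with BSA (-0.21 ± 0.18, adjusted p = 0.461). The change of Adamts5 on 1422561_at was -2.74 ± 0.26 log2 units from that of the brighter Adamts4 probe set and -2.30 ± 0.12 from that of Adamts1. For Adamts5 on 1450658_at it was smaller, at -1.62 ± 0.28 from the same Adamts4 probe set (exact permutation p = 0.1 for each, the smallest possible). Adamts7, which can cut cartilage oligomeric matrix protein, was at -0.45 ± 0.28, adjusted p = 0.298. Adamtsl4, one of the ADAMTS-like proteins, which lack a protease domain, averaged 1558 ± 243 with palmitate and 1621 ± 205 with BSA (SD, n = 3; -0.06 ± 0.19, adjusted p = 0.861). Adamtsl5 averaged 804 ± 156 with palmitate and 847 ± 111 with BSA (SD, n = 3; -0.085 ± 0.24, adjusted p = 0.842).

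Adam10, the sheddase that starts Notch cleavage and cuts the amyloid precursor protein, differed between its 3 probe sets. The brightest, 1428103_at, fell, with 3854, 2993 and 3532 with palmitate, against 4151, 6082 and 6456 with BSA (-0.67 ± 0.19, adjusted p = 0.0285). That call ended without palmitate replicate 2, palmitate replicate 3, BSA replicate 2 or BSA replicate 3 (adjusted p up to 0.12), without an intensity trend (0.0814) and with the replicate number as a block (0.0524). Probe set 1450105_at overlapped between groups, at 925, 782 and 697 with palmitate, against 831, 971 and 754 with BSA (-0.09 ± 0.23, adjusted p = 0.823). Probe set 1450104_at had its palmitate arrays above its BSA arrays without passing, at 248, 296 and 637 with palmitate, against 188, 195 and 227 with BSA (0.83 ± 0.47, adjusted p = 0.244), with the BSA arrays all under the filter signal. Averaged over its probe sets, Adam10 was at 0.025 (adjusted p = 0.944), so no single direction held for this gene.

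Adam17, which releases tumour necrosis factor and ligands of the epidermal growth factor receptor, did not pass on any of its 3 probe sets. The brightest gave 2260.1, 1699.6 and 2333 with palmitate, against 1740.0, 1544 and 1893 with BSA (0.27 ± 0.19, adjusted p = 0.346), and the other 2 were at -0.027 ± 0.21 and 0.11 ± 0.33 (adjusted p = 0.947 and 0.855). The change of the brightest Adam10 probe set was -0.94 ± 0.23 log2 units from that of Adam17 (exact permutation p = 0.1, the smallest possible). Adam9, a further widely expressed sheddase, gave 6634, 5155 and 6218 with palmitate, against 5705, 7547 and 7986 with BSA, with overlap (-0.23 ± 0.17, adjusted p = 0.373).

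Among the ADAMs tied to muscle cell fusion, Adam12 (meltrin alpha) gave 1004, 934 and 798 with palmitate, against 1192, 1321 and 1039 with BSA. The palmitate arrays lay below the BSA arrays, but the difference did not pass (-0.38 ± 0.21, adjusted p = 0.232), and the second Adam12 probe set was at 0.061 ± 0.36, adjusted p = 0.929, turning to -0.20 after hybridisation control scaling. Adam19 (meltrin beta) gave 1545, 1634 and 1249 with palmitate, against 1284, 1010.2 and 759.5 with BSA and was the 1 member higher at an unadjusted p under 0.05 (0.56 ± 0.23, adjusted p = 0.114). It passed without BSA replicate 1 (adjusted p = 0.0483), and its second probe set pointed the same way without passing (0.62 ± 0.40, adjusted p = 0.318). Adam15 differed between its probe sets, since 1 was at -0.50 ± 0.23, adjusted p = 0.154 (passing as lower without palmitate replicate 2, at -0.72, adjusted p = 0.0468), another at 0.59 ± 0.33, adjusted p = 0.236, and 1416080_at was at -0.045 ± 0.43, adjusted p = 0.958.

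Adam8, an ADAM of leukocytes and other cells, gave 435, 397 and 480.0 with palmitate, against 786, 545 and 832 with BSA, without overlap but short of the threshold (-0.70 ± 0.28, adjusted p = 0.104). Adam33, a gene linked to asthma in humans, was at 0.68 ± 0.40, adjusted p = 0.274, without overlap, with BSA replicate 3 alone at 185 and the other 5 arrays at 493 to 673. Adam4, known from mouse testis, was at -0.49 ± 0.32, adjusted p = 0.327. Among the MMPs that did not pass, Mmp11 (stromelysin 3) gave 503, 626 and 661 with palmitate, against 873, 851 and 883 with BSA, with BSA arrays close together and all above the palmitate arrays (-0.55 ± 0.23, adjusted p = 0.121). Mmp23, a small MMP without a hemopexin domain, gave 433, 104 and 258 with palmitate, against 551, 549 and 566 with BSA, with the palmitate arrays spread widely (-1.29 ± 0.48, adjusted p = 0.0825). It passed without palmitate replicate 1 (adjusted p = 0.0287). Mmp17, a lipid-anchored MMP, was near the filter and overlapped (0.29 ± 0.42, adjusted p = 0.682). After hybridisation control scaling Mmp11, Mmp23, Adam8 and Adam15 passed as lower as well (adjusted p = 0.028, 0.0322, 0.0334 and 0.028), and 18 of 42 were lower there, beside 20.3% of all probe sets.

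The 9 MMP genes that lie together on chromosome 9 were all dim, since 0 of their 9 probe sets reached the filter by the geometric mean over all arrays. In chromosomal order they are Mmp13, Mmp12, Mmp1b, Mmp3, Mmp1a, Mmp10, Mmp8, Mmp20 and Mmp7. Many genes of this cluster are known as targets of AP-1, the Fos and Jun dimer, at a site near the start of transcription. The 250 bases before the RefSeq start (GRCm38.p6) are printed for the 3 cluster genes whose groups did not overlap and, for comparison, for 3 genes that fell and whose promoter is in the RefSeq table, with any AP-1 match in capitals. Mmp12 has 2 starts in the table, and the one shown is that with a match, while the window of the other held none.
Mmp13 chr9:7272264-7272513 (+): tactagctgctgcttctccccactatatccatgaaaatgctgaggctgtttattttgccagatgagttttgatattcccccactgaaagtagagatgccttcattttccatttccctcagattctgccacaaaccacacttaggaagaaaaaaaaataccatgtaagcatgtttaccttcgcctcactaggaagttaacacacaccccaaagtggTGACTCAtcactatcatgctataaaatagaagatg
Mmp10 chr9:7502092-7502341 (+): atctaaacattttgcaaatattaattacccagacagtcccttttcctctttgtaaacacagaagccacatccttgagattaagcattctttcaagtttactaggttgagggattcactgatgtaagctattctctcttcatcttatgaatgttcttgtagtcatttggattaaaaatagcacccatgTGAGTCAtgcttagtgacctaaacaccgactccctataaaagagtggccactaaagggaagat
Mmp12 chr9:7347124-7347373 (+): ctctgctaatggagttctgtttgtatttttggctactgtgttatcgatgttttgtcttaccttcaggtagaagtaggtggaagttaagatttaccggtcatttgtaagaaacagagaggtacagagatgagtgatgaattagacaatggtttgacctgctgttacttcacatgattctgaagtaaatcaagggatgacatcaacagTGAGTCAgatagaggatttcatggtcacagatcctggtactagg
Mmp14 chr14:54431348-54431597 (+): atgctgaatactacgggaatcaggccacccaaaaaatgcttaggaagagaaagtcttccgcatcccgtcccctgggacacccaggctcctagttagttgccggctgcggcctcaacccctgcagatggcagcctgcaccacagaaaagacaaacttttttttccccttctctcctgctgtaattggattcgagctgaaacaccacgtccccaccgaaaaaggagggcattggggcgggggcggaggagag
Timp2 chr11:118355412-118355661 (-): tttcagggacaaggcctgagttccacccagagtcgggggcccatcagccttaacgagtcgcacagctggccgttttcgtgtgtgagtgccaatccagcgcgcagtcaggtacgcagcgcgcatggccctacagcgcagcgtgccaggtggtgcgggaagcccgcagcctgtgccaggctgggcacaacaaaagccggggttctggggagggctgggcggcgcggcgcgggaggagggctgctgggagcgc
Timp3 chr10:86300162-86300411 (+): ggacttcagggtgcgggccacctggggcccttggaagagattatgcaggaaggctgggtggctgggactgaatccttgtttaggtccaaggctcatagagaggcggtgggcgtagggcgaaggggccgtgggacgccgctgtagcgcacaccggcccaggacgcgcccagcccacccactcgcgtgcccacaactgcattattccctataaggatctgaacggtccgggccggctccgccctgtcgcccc

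The letters searched were TGACTCA and TGAGTCA, each the reverse of the other on the opposite strand, in windows from 250 bases before to 50 after each start. A match was held by 5.2% of the 32851 windows tabulated for all genes. Of the 56 member genes 32 had a window, and a match was found in 7 of the 9 cluster genes, in 7 of their 11 windows. It began 35 bases before the start for Mmp13, 44 for Mmp12 (second window), 46 for Mmp3, 63 for Mmp10 and for Mmp7 (first window), 73 for Mmp1a and 93 for Mmp1b. Outside the cluster 2 of 26 windows held one, those of Adam19 (131 bases before the start) and Adam1b. The windows of Mmp14, Timp2, Timp3 and Adam10, the 4 genes that have a window and a probe set that fell, held 0. Mmp2 and Adamts5 had no window, and 4 windows are too few to set against the 5.2% of all windows. G and C made up 37.7% to 52.0% of the cluster windows and 56.0% to 73.3% of those 4 windows. Over the 26 windows outside the cluster G and C made up 36.0% to 80.0%. The 2 with a match there were at 60.3% (Adam19, in 1 of its 3 windows) and 51.0% (Adam1b). Whether base composition bears on the matches was not tested. A match of letters is a description and not a site.

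Mmp13, collagenase 3, was the cluster gene with the clearest difference. It gave 592, 534 and 410.4 with palmitate, against 70.3, 23.8 and 87.1 with BSA. All palmitate arrays were above the filter signal and all BSA arrays well below it, but the geometric mean over the 6 arrays was under the filter, so it was not in the test. With no filter it was 1 of 15 member probe sets that passed and the only one higher (3.27, adjusted p = 0.0104, where 9.90% of all 22626 probe sets passed). The size rests on very low BSA signals, and adding 64 to every signal before log2 gave 2.24 in place of 3.27. Mmp10, stromelysin 2, also had its palmitate arrays above its BSA arrays, at 59.1, 194 and 149 with palmitate, against 56.5, 37.6 and 17 with BSA, all under the filter signal (1.85, adjusted p = 0.266 with no filter). Mmp12, macrophage elastase, lay the other way, at 25.4, 4.7 and 18.3 with palmitate, against 122, 100.5 and 145 with BSA (-3.22, adjusted p = 0.0596 with no filter). The other 6 cluster genes overlapped between groups, Mmp3 for example at 353, 37.5 and 8.4 with palmitate, against 168, 89.1 and 29.9 with BSA. So 2 of 9 were apart upward and 1 downward, each by at least 2-fold, as were 11.2% of all dim probe sets in either direction. Of the 7 genes with an AP-1 match Mmp13 and Mmp10 lay above, Mmp12 below and Mmp3, Mmp1a, Mmp1b and Mmp7 overlapped. Whether a match bears on these differences was not tested.

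**Figure D3:**
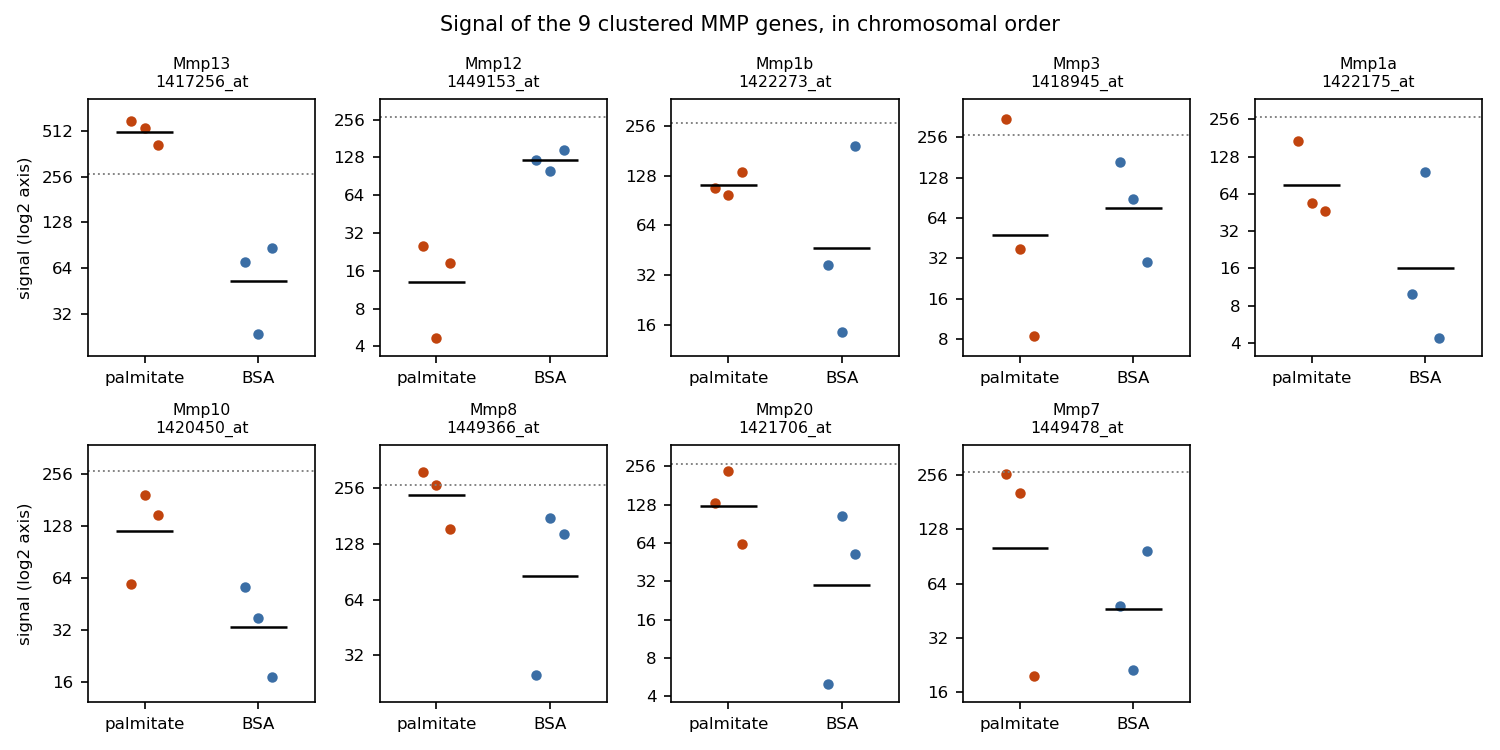
Signal on each array (log2 axis, unitless MAS 5 signal) of the 9 clustered MMP genes, palmitate left and BSA right, with the geometric mean as a bar and the filter signal of 267.1 as a dotted line. Only for Mmp13 do all 3 palmitate arrays, at 410.4 to 592, lie above the dotted line while the BSA arrays, at 23.8 to 87.1, lie below it.

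Among the other dim members 4 probe sets did not overlap between groups, which makes 7 of 43 with Mmp13, Mmp10 and Mmp12. Each of the 7 differed at least 2-fold, beside 11.2% of all dim probe sets that did both. Mmp16, a membrane-anchored MMP, had 2 dim probe sets that lay in opposite directions. The first gave 351, 356 and 414 with palmitate, against 186, 69.6 and 243 with BSA (1.35, adjusted p = 0.198 with no filter). The second gave 63.2, 20.9 and 38.9 with palmitate, against 199, 282 and 332 with BSA (-2.83, adjusted p = 0.0402 with no filter). The 2 probe sets thus gave no single direction for this gene. The dim Mmp23 probe set was at -2.03 (adjusted p = 0.164 with no filter), on the same side as the brighter one. Adamts10, whose human gene is mutated in a form of Weill-Marchesani syndrome, gave 136, 142 and 19.3 with palmitate, against 435, 411 and 278 with BSA (-2.35, adjusted p = 0.102 with no filter).

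The remaining 36 dim probe sets overlapped between groups. They included both probe sets of the gelatinase Mmp9, both of Mmp19, both of the membrane-anchored Mmp24, and Mmp8, the neutrophil collagenase. Mmp9 gave 194, 426 and 45.1 with palmitate, against 280.4, 93.3 and 246 with BSA on its brighter probe set, with palmitate replicates both above and below the BSA arrays. Of the 25 ADAM genes 16 were dim on all their probe sets, with geometric means of 16.2 to 163 over the dim ADAM probe sets. Among them were the sperm genes Adam2 and Adam3 and the protease-dead nervous system genes Adam11, Adam22 and Adam23. Of the ADAMTS genes, Adamts15 and Adamts8 were dim and overlapped. A dim probe set sets no lower bound on change, and whether any of these transcripts were present is not known from these values.

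**Figure D4:**
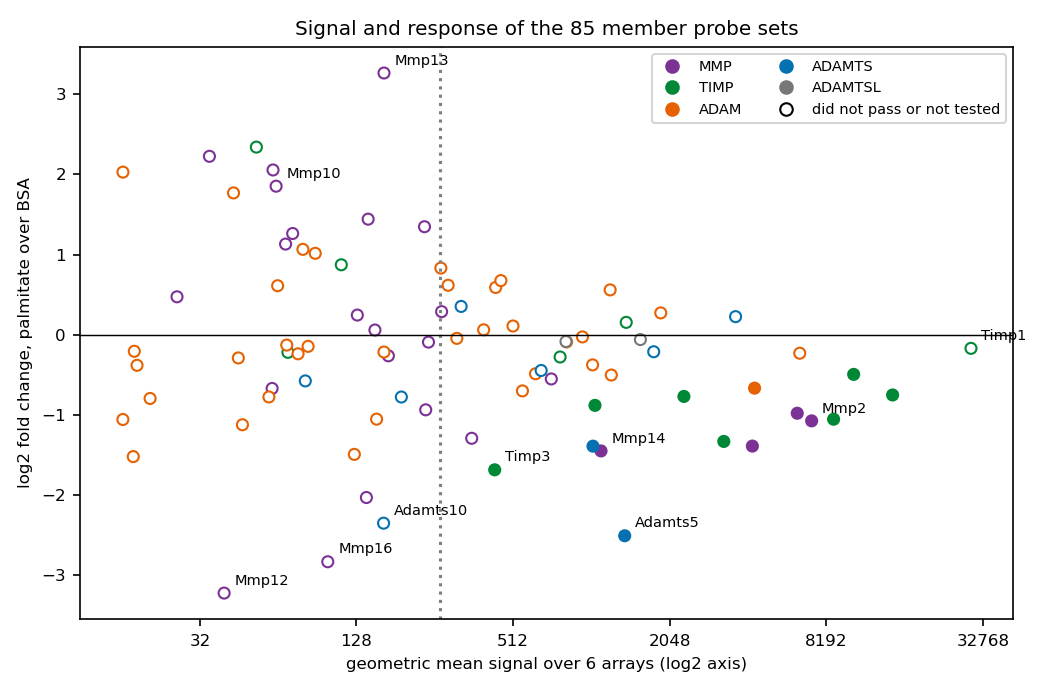
Geometric mean signal over the 6 arrays (log2 axis) against the log2 fold change, palmitate over BSA, of all 85 member probe sets, coloured by family, with the filter signal of 267.1 as a dotted line. Filled points passed the test and lie right of the line and below 0, while left of it values scatter from -3.22 (Mmp12) to 3.27 (Mmp13).

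Related genes were read from 8 lists, of 81 genes in all, with 59 above the filter by their brightest probe set, of which 12 rose and 23 fell. Of these 35 calls 25 held on leaving out any 1 array. Matrix proteins that these enzymes cut fell in 9 of 13 cases with 0 higher, at a median of -0.84. These lists were read against 8.63% higher and 10.6% lower of all probe sets. Col1a1, a chain of type I collagen, averaged 2449 ± 398 with palmitate and 12218 ± 2405 with BSA (SD, n = 3; -2.31 ± 0.19, adjusted p = 1.05e-05). Others that fell were Col1a2 (-1.63 ± 0.12) of the same collagen, Col3a1 (-1.89 ± 0.15) of type III collagen, fibronectin Fn1 (-0.86 ± 0.13) and the proteoglycans Dcn (-1.27 ± 0.18) and Bgn (-0.76 ± 0.11), while versican, the substrate of Adamts5, gave 2282, 1609.7 and 2264 with palmitate, against 2881, 3926 and 3703 with BSA (-0.78 ± 0.19, adjusted p = 0.0159; up to 0.0795 without BSA replicate 2 or 3, where the call ended). Of the basement membrane genes, the type IV collagen chains Col4a1 (-0.95 ± 0.15) and Col4a2 (-0.72 ± 0.16) fell, the call of Col4a2 ending without BSA replicate 2 (adjusted p = 0.0516), and Nid1 and Hspg2 did not pass (-0.13 ± 0.14 and 0.26 ± 0.17). All 3 measured genes of the astacin list, a sister family that processes procollagen, fell, namely the protease Bmp1 (-1.36 ± 0.27) and its enhancers Pcolce (-1.48 ± 0.13) and Pcolce2 (-1.73 ± 0.24).

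Other regulators of metalloproteinases fell in 4 of 6 cases with 0 higher, at a median of -1.01. Reck, a membrane-anchored MMP inhibitor, gave 208, 179 and 178 with palmitate, against 312, 546 and 556 with BSA (-1.28 ± 0.41, adjusted p = 0.0476). All palmitate arrays of Reck were under the filter signal, and its call ended on leaving out any array but BSA replicate 1 (adjusted p up to 0.178). Lrp1, the receptor that clears MMPs and TIMPs, was at -0.97 ± 0.20, adjusted p = 0.00604, and the thrombospondins Thbs1 and Thbs2, which bind MMP2, were at -1.05 ± 0.15 and -2.18 ± 0.20. Bsg (basigin), known to induce MMPs, did not pass (-0.05 ± 0.18). The convertase Furin, which activates MMP14, MMP11 and ADAMs, gave 1648, 1642 and 1276 with palmitate, against 1600.2, 1462 and 1535 with BSA, with overlap (-0.018 ± 0.18, adjusted p = 0.96), and Pcsk7 did not pass either (-0.18 ± 0.20). Of the plasminogen list, which leads to plasmin, an activator of pro-MMPs, the urokinase receptor Plaur averaged 3806 ± 673 with palmitate and 886 ± 94.5 with BSA (SD, n = 3; 2.09 ± 0.19, adjusted p = 2.28e-05), the inhibitor Serpinb2 rose (2.92 ± 0.47, with all BSA arrays under the filter signal, at 109.5, 68.4 and 236), tissue activator Plat fell (-0.89 ± 0.16) and urokinase Plau was dim.

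Of 5 measured partners of ADAM10 and ADAM17, 2 fell and 0 rose. The tetraspanins Tspan14 and Tspan17 fell (-0.58 ± 0.19 and -1.03 ± 0.26), though the call of Tspan14 ended on leaving out any array but BSA replicate 3 and that of Tspan17 without palmitate replicate 3 or BSA replicate 1 (adjusted p up to 0.171 and 0.0538), and the ADAM17 partner Rhbdf1 did not pass (0.033 ± 0.17). Of 18 shed ligands and receptors 4 rose and 4 fell, at a median of -0.089. The growth factor Hbegf gave 6233, 5156 and 4709 with palmitate, against 1599, 1593 and 1391 with BSA (1.81 ± 0.17, adjusted p = 2.79e-05), and Ereg gave 15088, 12124 and 15349.9 with palmitate, against 2085, 3572 and 3980.3 with BSA (2.19 ± 0.22, adjusted p = 4.95e-05). Both are ligands of the epidermal growth factor receptor, and for both every palmitate array lay above every BSA array. The cytokine Csf1 and the hyaluronan receptor Cd44 rose too (0.70 ± 0.13 and 0.51 ± 0.13), though both calls ended after hybridisation control scaling (adjusted p = 0.0613 and 0.285), while the ADAM10 substrate Notch3 (-1.05 ± 0.17), the syndecan Sdc1 (-0.66 ± 0.15), Vcam1 (-0.51 ± 0.15) and App (-0.44 ± 0.12) fell. The call of Cd44 ended without palmitate replicate 1 or BSA replicate 2 (adjusted p up to 0.0803), that of Vcam1 without palmitate replicate 2 or 3 or BSA replicate 2 or 3 (0.134) and that of App without any array but BSA replicate 3 (0.091). Of 9 AP-1 and ETS factor genes 6 rose and 0 fell, at a median of 1.03, namely Fos (2.20 ± 0.19), Fosl1 (1.88 ± 0.16), Jun (1.38 ± 0.21), Fosb (1.37 ± 0.44), Ets1 (1.03 ± 0.20) and Junb (0.81 ± 0.20). All BSA arrays of Fosb were under the filter signal, at 254, 151 and 124. The call of Fosb ended on leaving out any array but BSA replicate 1 and that of Junb without BSA replicate 2 or 3 (adjusted p up to 0.131 and 0.0532). Both calls also ended after hybridisation control scaling (adjusted p = 0.0987 and 0.0657), and Fosl2 and Jund did not pass (0.72 ± 0.32 and 0.15 ± 0.18).

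**Figure D5:**
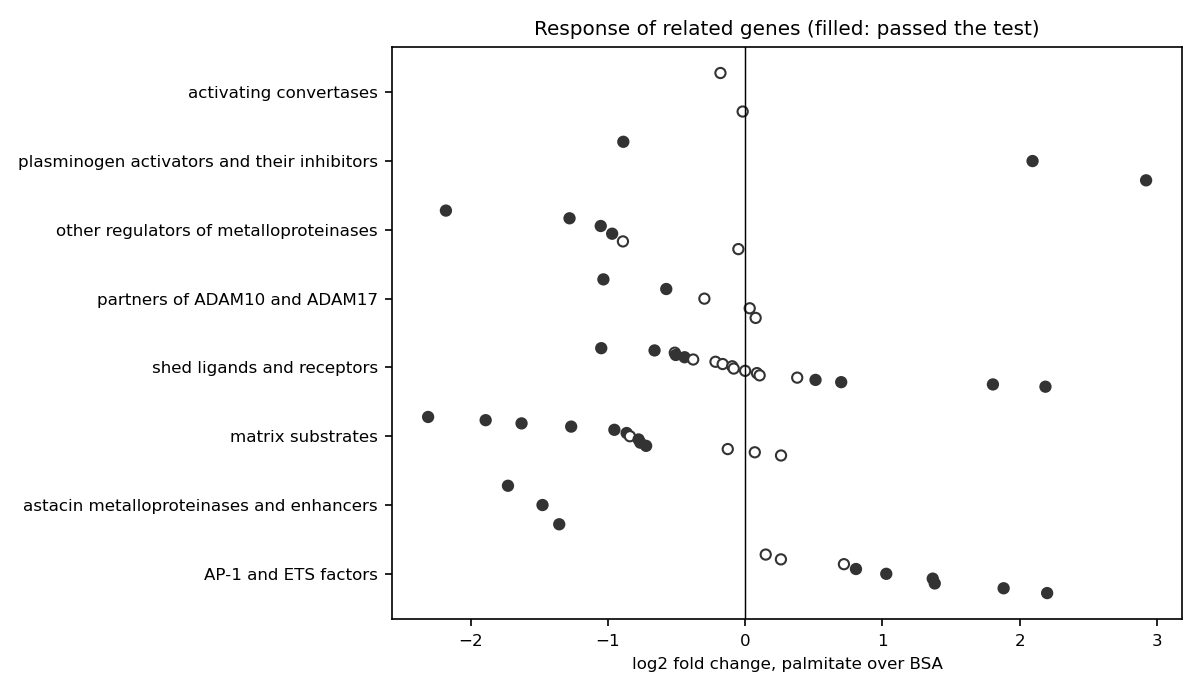
Log2 fold change, palmitate over BSA, of the related genes above the filter, by list and by each gene's brightest probe set. Filled points passed the test. The filled matrix substrate and astacin points lie left of 0, and the filled AP-1 and ETS points lie right of it.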

How the data were processed

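Transcripts were measured on Affymetrix mouse 430A 2.0 arrays, 3 with palmitate and 3 with BSA, per the design text. The deposited values are signal intensities per probe set, made by the authors with MAS 5 per the submitters' processing notes, and its settings and detection calls are not given in the sources used here. With arrays scaled to an equal average, a shift shared by most transcripts would not be seen. Controls of the array (64) were left out, signals were log2 transformed with no offset, and those whose mean log2 signal exceeded the 40th percentile were compared with limma 3.58.1 in R 4.3.3 (lmFit, eBayes with an intensity trend, two-sided, Benjamini-Hochberg over 13575 probe sets, 4 residual and 7.98 prior degrees of freedom, median SE 0.22). The fit was also run on data simulated from its own model, which does not test how well that model holds for these signals. Of 20380 probe sets with 1 symbol, 691 with several and 1555 with none, only the first were named, and the platform annotation's 56 member symbols all matched RefSeq by gene ID with 0 changed. Promoter sequences are RefSeq's, build GRCm38.p6. Figures were drawn with matplotlib 3.10.9.

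Members, lists and tests were chosen with earlier results of these data known. Named were all members above the filter, dim members that did not overlap and differed at least 2-fold (others as examples of a count, chosen after values were seen), and up to 5 called related genes per list with the smallest p. Related genes named without a call (Nid1, Hspg2, Bsg, Furin, Pcsk7, Rhbdf1 and Plau), and Cd44, App, Vcam1, Bgn, Vcan, Col4a1, Col4a2, Fosb, Fosl2 and Jund, were chosen after values were seen. A search for motifs in proteins was not run. Alternatives were 4 other scalings, 2 other filters, an offset, no intensity trend, averaged probe sets, the replicate number as a block and leaving out each array.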

Additional observations from a re-analysis of the deposited data

How the results depend on the processing

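Lower member probe sets, 14 of 42 as reported, numbered 11 to 14 on leaving out 1 array, beside 6.14% to 9.44% of all. Without an intensity trend 12 were lower, beside 8.51% of all, and with the stricter filter 13 of 24, beside 13.6%. With median, 75th percentile and quantile normalization 13 or 14 were lower, beside 9.47% to 10.1%, and after hybridisation control scaling 18, beside 20.3%. With probe sets of a gene averaged 5 of 23 genes were lower (Adam10 was lost), beside 12.2% of all 8984 values tested there. The count is smaller because each gene counts once. The count of higher ones, 0 as reported, was 1 with no filter (Mmp13) and 0 to 1 on leaving out 1 array (Adam19 without BSA replicate 1). Calls over all probe sets ranged from 1579 (without BSA replicate 2) to 2315 on leaving out 1 array. Related genes called, 35 as reported, ranged from 26 to 33 on leaving out 1 array and 29 to 36 otherwise.

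Replicate numbers are shared between the groups, and the labels do not say whether same-numbered arrays were handled together. Deviations of same-numbered arrays from their group means correlated at -0.23, -0.13 and 0.0091. Such deviations sum to 0 within each group, so these values cannot decide whether the numbers are a pairing. With the replicate number as a block 12 members were lower, beside 8.24% of all probe sets, and 0 higher, with 1973 calls in all and 29 related genes.

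Sign changes among the 14 called probe sets were limited to Adam10 averaged over its probe sets (0.025). Values that did not pass and changed sign were, after hybridisation control scaling, Timp2 (-0.10), Adam12 (-0.20), Adam17 (-0.15) and Adamts4 (-0.033), another Adam17 probe set with 75th percentile (0.0036) and quantile (0.030) normalization, and Adam15 averaged (0.014). On leaving out 1 array, values spanned 0 for Adam15 (-0.40 to 0.24), Adamtsl5 (-0.18 to 0.087), Adam12 (-0.17 to 0.35), Adam17 (-0.096 to 0.36 and -0.13 to 0.082), Adam10 (-0.20 to 0.0089) and Adamtsl4 (-0.18 to 0.022). The cause was not tested. Signals under 267.1 and 3 arrays per group limit what could pass.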
